A study of Rattus norvegicus with 3 samples.

Results

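Single nuclei from the injured rat spinal cord that carried transcripts of the transporters Slc26a7 and Slc47a1, the transcription factor gene Foxp2, the matrix gene Adamtsl3 or the zinc finger gene Zbtb7c were described across 3 libraries. Members were chosen by a rule on their own counts. A nucleus needed at least 1 UMI (a counted RNA molecule) in 2 or more of those 5 genes. It also needed at least as many of the 5 as of Slc6a20, Slc6a13, Aldh1a2, Epha7 and Plcxd3. At most 2 of Col1a1, Col3a1, Col5a2, Col8a1, Postn, Tnn and Tnc and at most 1 of Snhg11, Syt1, Snap25 and Celf4 were allowed. The rule found 275 of 5326 nuclei. All rats were wild-type SD rats aged 17 weeks with a spinal cord injury, and the tissue was the lesion epicenter 49 days after injury. The untreated library had no implant, the scaffold library came 7 days after a scaffold was implanted, and the HGF scaffold library came 7 days after a scaffold releasing hepatocyte growth factor (HGF) was implanted. Each group is 1 library, and the number of animals in it is not given in the sources used here, so no test between groups was possible. Intervals below are exact 95% intervals that cover counting error only.

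The meninges are layers of fibroblast-like and barrier cells around the cord. Cells of the arachnoid and the dural border carry transporters that move organic ions, bicarbonate and nutrients between blood, cerebrospinal fluid and tissue. Slc26a7 encodes an anion transporter that exchanges chloride for bicarbonate, Slc47a1 a proton-coupled exporter of organic cations, and Slc4a4 a sodium bicarbonate cotransporter that astrocytes also use. Foxp2 encodes a forkhead transcription factor and Eya2 a transcriptional coactivator.

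The members numbered 123 of 2252 nuclei in the untreated library, 5.46% (interval 4.56% to 6.48%), 116 of 2168 in the scaffold library, 5.35% (4.44% to 6.38%), and 36 of 906 in the HGF scaffold library, 3.97% (2.80% to 5.46%). These unthinned intervals overlapped. Detection depends on depth, so the rule was also read after every nucleus was thinned to 500 UMIs. The shares were then 6.75% (5.75% to 7.87%) in the untreated, 4.29% (3.48% to 5.23%) in the scaffold and 4.64% (3.36% to 6.21%) in the HGF scaffold library. The thinned intervals of the untreated and scaffold libraries did not overlap, and the order of the libraries differed from the unthinned one. Thinning also makes the limits on matrix and neuronal genes easier to meet, so it can let nuclei in. In the untreated library most nuclei that met the thinned rule had not met it on full counts. In both implanted libraries most had. The thinned gap is therefore not a difference in share freed of depth, and the part of the eased limits in it was not tested. Of the 275 members, 149 met the rule in both readings. The members held 213595 UMIs in the untreated, 221057 in the scaffold and 53082 in the HGF scaffold library, with medians of 1191, 1484.5 and 1238 UMIs per nucleus. Libraries shared at most 3 barcodes with one another, and none of these was a member.

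Many members met the rule only just. Exactly 2 of the 5 genes were detected in 143 members, 3 in 61, 4 in 42 and all 5 in 29. Just outside the threshold, 1197 nuclei had 1 of the 5. Of the 947 nuclei with 2 or more, 554 were left out because they held more than 2 of the 7 matrix genes, 78 because they held more of the Slc6a20 group, and 40 because of neuronal genes. In nuclei with exactly 2 genes outside the main cluster (below), Foxp2 with Zbtb7c was the pair in 29 of 103, and Slc26a7 with Slc47a1 in 0 of 103.

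The members were a mixture. In a joint clustering of all 5326 nuclei into 20 clusters, 147 members (53.5%) lay in 1 cluster, called the main cluster here, and 128 were spread over 17 others. The main cluster held 62 members of the untreated, 58 of the scaffold and 27 of the HGF scaffold library, which is 50.4%, 50% and 75% of the members of each. Outside it, 26 members lay in a cluster led by Ccl21, Ptgds and Gjb2, 22 in a cluster led by oligodendrocyte genes such as Mobp and Mog, 18 in a cluster led by Asgr2, Lama1 and Slc22a8, 10 in a cluster with the myeloid gene Itgam and 10 in one with the endothelial genes Emcn and Flt4. Of the members with exactly 2 rule genes, 40 of 143 lay in the main cluster, against 27 of 29 with all 5. At least 3 markers of 1 other lineage were present in 153 of the 275 members, in 55 of the 147 in the main cluster and in 98 of the 128 outside it. Myeloid markers were present at that number in 19 members of the untreated, 66 of the scaffold and 17 of the HGF scaffold library, and oligodendrocyte markers in 36, 38 and 6. Doublets were not called, and the part of free RNA or doublets in these markers was not tested. Values are therefore given for the main-cluster members beside those for all members.

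**Figure D1:**
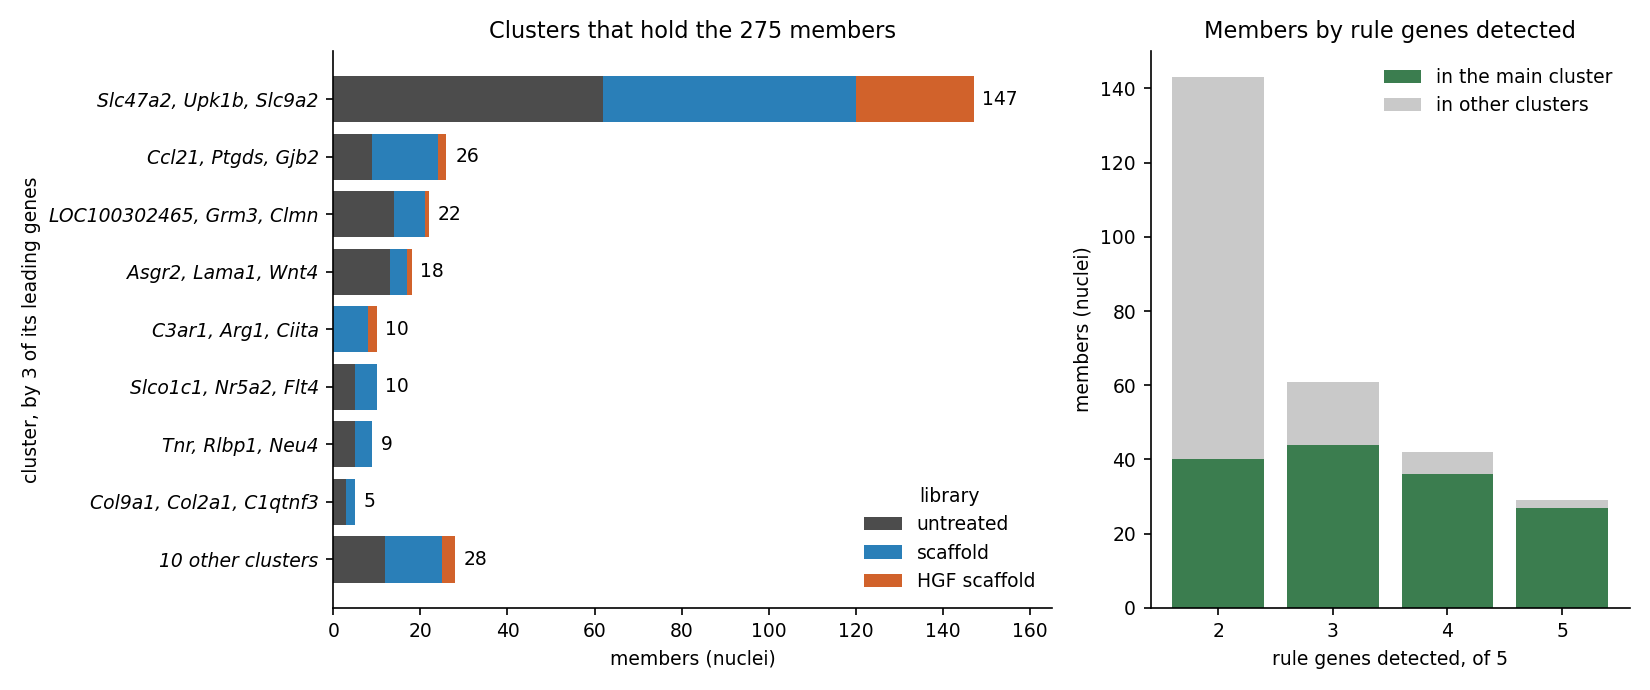
Left, number of members (x axis, nuclei) in each cluster, named by 3 of its leading genes, with colour for the library. Right, number of members (y axis) by how many of the 5 rule genes were detected, split into the main cluster and other clusters; 147 of 275 lie in the main cluster, and 40 of the 143 with exactly 2 genes.

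The meningeal label was borne out only in part. Markers of meningeal fibroblasts, with the rule genes left out, summed to 702, 544 and 695 CPM (UMIs of a gene per 1e6 UMIs of the set) in main-cluster members of the untreated, scaffold and HGF scaffold libraries. In nuclei chosen the same way for Slc6a20, Slc6a13, Aldh1a2, Epha7 and Plcxd3, called Slc6a20-side nuclei here (112, 105 and 19 nuclei), the same markers summed to 1686, 1210 and 1676 CPM. The fibroblast markers Slc22a6, Tbx18 and Alx4 were at 0 in main-cluster members of all 3 libraries. Markers of the arachnoid barrier, again without rule genes, summed to 8339, 5877 and 8072 CPM, against 3021, 1898 and 1447 CPM in all other nuclei and 7342, 4981 and 6208 CPM in Slc6a20-side nuclei. Most of the main-cluster sum was Slc4a4, whereas most of the Slc6a20-side sum was Ptgds of the same list, so the sums do not rank these sets. Slc22a6, Slc22a8, Wnt6 and Tfap2b of that list were at 0 in main-cluster members of each library. The arachnoid genes Cdh1, which encodes E-cadherin, and Klf5, a transcription factor, were present, Cdh1 at 296, 406 and 348 CPM and Klf5 at 296, 188 and 321 CPM. The tight junction gene Cldn1 had 3 UMIs in all of them together. The choroid plexus genes Ttr, Kl, Folr1, Clic6 and Otx2 were at 0 in all 3 libraries, as were the astrocyte genes Aldh1l1, Fgfr3, Slc7a10 and Rgs20, while Aqp4 was at 37.0, 59.4 and 53.5 CPM. The nuclei are accordingly named here by their genes and not as a meningeal type.

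The rule genes and the given markers were high in the main cluster. The rule genes chose the members. Slc4a4 and Eya2 did not, but they were given as markers, and clustering on the same counts drew the main cluster. All of these values are a description. Slc26a7 stood at 727 CPM in the untreated, 584 in the scaffold and 1096 in the HGF scaffold main-cluster members, against 106, 100 and 191 CPM in members of other clusters. Slc47a1 stood at 850, 712 and 775 CPM, against 189, 242 and 191 CPM. Members in other clusters thus carried both transporters at lower levels in every library, with only 9 such nuclei in the HGF scaffold library. Clustering on the same counts drew this split, so the gap is a description as well. Foxp2 stood at 2377, 1880 and 2940 CPM in the main cluster and at 808, 533 and 957 CPM in other members. Adamtsl3, which encodes a secreted matrix protein, stood at 2574, 2691 and 2432 CPM against 415, 417 and 447 CPM. Zbtb7c differed less, at 1269, 1138 and 802 CPM against 431, 333 and 510.5 CPM.

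Free RNA was gauged in oligodendrocyte nuclei, which should lack these genes. After thinning to 500 UMIs, Slc26a7 was seen in 29%, 27.6% and 40.7% of main-cluster members and in 0%, 1.49% and 0% of oligodendrocyte nuclei. For Foxp2 the thinned shares were 53.2%, 55.2% and 77.8% against 4.10%, 4.17% and 3.26%. Without thinning, Foxp2 was seen in 82.3%, 82.8% and 96.3% of main-cluster members and in 22.7%, 20.2% and 5.43% of oligodendrocyte nuclei, whose median depths were 3080, 3055 and 1276 UMIs against 1016, 1445 and 1201. Since UMIs of these genes chose the members, the gap to oligodendrocyte nuclei was fixed by the choice and shows nothing further.

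Of the given markers, Slc4a4 and Eya2 were not used by the rule. Slc4a4 stood at 5777, 4373 and 6843 CPM in main-cluster members and at 589, 600 and 957 CPM in other members. Against all other nuclei, the main-cluster level was 6.55-fold (5.94 to 7.20), 10.5-fold (9.50 to 11.7) and 14.7-fold (12.7 to 17.0) higher. Here and elsewhere, all other nuclei means every nucleus outside the members. That includes 124, 73 and 31 main-cluster nuclei that the rule left out, in which Slc4a4 was also high (below). Their part in these ratios was not tested. Eya2 stood at 1343, 1415 and 802 CPM, and it was also present in Slc6a20-side nuclei at 646, 522 and 724 CPM. Slc4a4 thus differed between the main cluster and Slc6a20-side nuclei in all 3 libraries. Eya2 differed in the untreated and scaffold libraries only, with a ratio of 1.11 (0.604 to 2.08) in the HGF scaffold library. Both were given markers, and clustering on the same counts drew the main cluster, so these gaps are a description as well.

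Genes outside the rule were ranked by their lowest ratio to all other nuclei among the 3 libraries. Of 3783 genes with at least 30 UMIs in members, 55 (1.45%) were 2-fold or more higher in members in each library. For main-cluster members it was 120 of 1832 (6.55%), but that set was also drawn by clustering on these counts, so its ratios describe it and test nothing. The leading gene in both rankings was Slc47a2, which encodes another organic cation exporter and neighbours Slc47a1 in RefSeq. Slc47a2 stood at 283, 188 and 267 CPM in main-cluster members, from 23, 19 and 10 UMIs, and at 21.4, 7.54 and 7.87 CPM in all other nuclei. How the authors' counting divided reads between these neighbouring genes is not given in the sources used here. Kcnk5, which encodes a potassium channel sensitive to alkaline pH, followed at 554, 495 and 748 CPM against 58.9, 34.3 and 35.1 CPM.

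The sequences upstream of the starts of these leading genes are shown because RefSeq held no such window for Slc26a7, Slc47a1 or Foxp2 in the table used. Both are 250 bases before the annotated start in GRCr8, 5′ to 3′ on the gene's strand, with each GC box (GGGCGG on either strand) in capitals. Slc47a2 lies on the minus strand at chr10:46532955-46533204 and Kcnk5 on the plus strand at chr15:4171375-4171624.
Slc47a2: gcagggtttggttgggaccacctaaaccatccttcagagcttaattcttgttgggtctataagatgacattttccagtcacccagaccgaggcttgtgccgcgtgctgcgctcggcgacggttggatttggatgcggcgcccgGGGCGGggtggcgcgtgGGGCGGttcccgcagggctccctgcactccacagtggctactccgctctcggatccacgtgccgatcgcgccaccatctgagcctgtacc
Kcnk5: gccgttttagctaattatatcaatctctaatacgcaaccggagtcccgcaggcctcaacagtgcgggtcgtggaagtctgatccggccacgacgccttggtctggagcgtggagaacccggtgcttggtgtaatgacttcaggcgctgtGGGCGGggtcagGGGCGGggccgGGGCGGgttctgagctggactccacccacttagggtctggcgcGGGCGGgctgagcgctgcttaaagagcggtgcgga
The Slc47a2 window held 2 GC boxes and the Kcnk5 window 4, and 30.5% of all 33469 windows held at least 1. The forkhead core TGTTTAC, searched on both strands, was in 3.21% of all windows and in none of the 14 windows of 13 leading or rule genes that had one.

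Genes of bicarbonate and acid-base handling were prominent among the transporters. Of 24 such genes in the files, 4 outside the rule had enough UMIs in main-cluster members. Slc4a4, Slc4a10 and Slc9a2 were 2-fold or more higher than in all other nuclei in each library, beside 6.55% of all genes. The median log2 ratio of the 4 was 2.54, against 0.10 over all measured genes. Slc9a2, a sodium-proton exchanger, stood at 480.4, 317 and 535 CPM against 51.4, 20.3 and 32.9 CPM. Slc4a10, a sodium-driven bicarbonate transporter, stood at 394, 257 and 615 CPM against 130.5, 80.1 and 45.1 CPM, and 12 of its 23 UMIs in the HGF scaffold library came from 1 nucleus.

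Other transporters and their regulators were raised too. Of 37 listed solute carriers in the files, 9 were measured outside the rule, and Slc4a4, Slc38a2, Slc2a13 and Slc12a7 were among those higher by this count. Slc12a7, a potassium-chloride cotransporter, stood at 456, 366 and 428 CPM against 84.3, 109.5 and 134.5 CPM. The kinase genes Wnk4 and Stk39, whose products act in 1 pathway that controls cation-chloride cotransporters, were both higher: Stk39 at 2525, 1603 and 2192 CPM against 514, 321.5 and 262 CPM, and Wnk4 at 148, 138.5 and 107 CPM against 21.8, 13.6 and 5.72 CPM. Wnk4 rested on 12, 14 and 4 UMIs. The vitamin transporter gene Slc5a6 stood at 419, 416 and 348 CPM against 62.4, 49.9 and 53.7 CPM. Slc38a2, an amino acid transporter, stood at 1256, 1365 and 1657 CPM against 309, 261 and 269.7 CPM.

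Listed genes of signalling pathways and matrix were read against the same 6.55% of all genes. Of 10 measured genes of the BMP and TGF-beta pathway, Bmp4, Bmp6, Bmper, Smad6 and Tgfbr3 were higher in the main cluster. Bmper, which binds BMPs, stood at 579, 406 and 294 CPM against 88.3, 47.9 and 61.5 CPM. Of 6 Wnt pathway genes, the R-spondins Rspo2 and Rspo3, which strengthen Wnt signals, were higher, Rspo3 at 98.5, 277 and 187 CPM against 32.6, 13.6 and 20.03 CPM. Fras1, a basement membrane protein gene, stood at 862, 623 and 1096 CPM against 164, 95.9 and 102 CPM. The guidance gene Slit2 stood at 1848, 1544 and 1310 CPM against 551, 279 and 315 CPM, and of 15 guidance genes Ntn1 and Epha3 were counted higher as well and Slit3 lower. Nr3c2, the mineralocorticoid receptor gene, stood at 2390, 1652 and 2165 CPM against 648, 328 and 231 CPM.

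**Figure D2:**
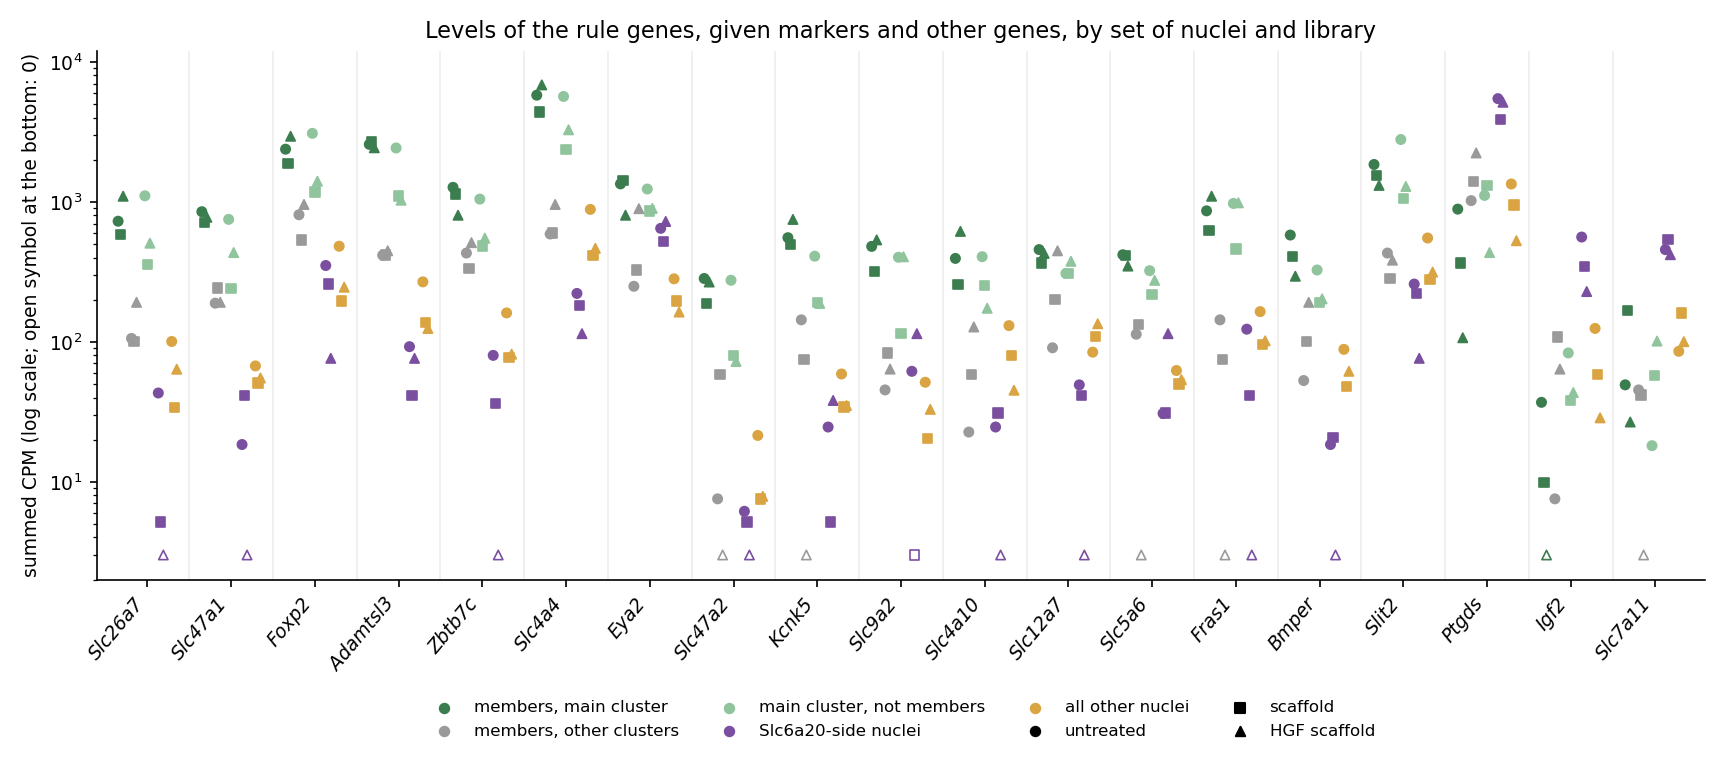
Summed CPM (y axis, log scale; open symbols at the bottom mark 0) of the rule genes, given markers and other named genes (x axis) in 5 sets of nuclei, with symbols for the 3 libraries. Main-cluster members lie above members of other clusters for Slc26a7, Slc47a1 and Slc4a4 in every library, and Slc6a20-side nuclei lie above them for Ptgds, Igf2 and Slc7a11.

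The main cluster also held nuclei that the rule left out. Of its 375 nuclei, 147 (39.2%) were members, and 176 had 2 or more rule genes but more than 2 matrix genes. The cluster made up 8.26% of the untreated, 6.04% of the scaffold and 6.40% of the HGF scaffold library. The 228 nuclei outside the rule had a median of 2049.5 UMIs, against 1259 in the 147 members. In them Slc4a4 stood at 5658, 2353 and 3269 CPM and Slc26a7 at 1104, 355 and 506 CPM. One of the matrix genes that the rule limits, Col8a1, stood at 4076, 915 and 2343 CPM in these nuclei and at 1355, 544 and 1470 CPM in main-cluster members, against 105, 41.4 and 38.1 CPM in Slc6a20-side nuclei. Col1a1, the main fibrillar collagen gene, was in contrast lower in main-cluster members, at 431, 218 and 454 CPM, than in all other nuclei, at 1745, 804 and 1656 CPM; the rule limits this gene as well.

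Slc6a20-side nuclei were the set most like these by the rule, and the same limits on matrix and neuronal genes applied to both. They were a mixture too: at least 3 markers of 1 other lineage were present in 151 of the 236. Oligodendrocyte markers reached that number in 97 of them and myeloid markers in 76. Slc6a20-side nuclei were not limited to 1 cluster, and the part of other lineages in the differences below was not tested. Of 5603 genes measured, 51 (0.91%) were 2-fold or more higher and 80 (1.43%) lower in members in each of the 3 libraries. For main-cluster members it was 118 (2.65%) and 108 (2.43%) of 4451. Genes of the rule were left out. Among the 10 leading higher genes were RGD1564053, Kcnk5, Slc4a4, Hmcn1, Shisa6, Slc4a10 and Grm8. RGD1564053 stood at 787, 905 and 1827 CPM in members and at 55.4, 72.4 and 0 CPM in Slc6a20-side nuclei. Slc4a4 stood at 2561, 2325 and 5105 CPM against 222, 181 and 114 CPM, so the libraries did not overlap between the sets. Hmcn1, which encodes the matrix protein hemicentin, stood at 669.5, 330.2 and 1111 CPM against 135, 62.1 and 0 CPM.

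The acid-base genes that passed 2-fold between these sets all did so in 1 direction. Of 8 measured in members, Slc4a4, Slc4a10 and Slc9a2 were higher and none was lower, with a median log2 ratio of 0.64 against -0.04 over all genes. The cotransporter gene Slc12a2 was 2.57-fold (1.69 to 3.95), 2.18-fold (1.36 to 3.51) and 3.98-fold (1.65 to 11.6) higher in main-cluster members. Slc12a7 was 9.26-fold (4.24 to 23.0) and 8.85-fold (4.05 to 22.0) higher in the untreated and scaffold libraries, and at least 3.74-fold higher in the HGF scaffold library, where no Slc6a20-side nucleus had a UMI. Stk39 was 6.84-fold (5.11 to 9.28), 8.61-fold (5.97 to 12.7) and 19.2-fold (6.34 to 94.9) higher. Stk39 was chosen after its values were seen, and of 15 listed solute carriers in this comparison 5 were higher and 4 lower.

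Other named genes were lower in members than in Slc6a20-side nuclei. Of 10 insulin-like growth factor genes measured in members, Igf1, Igf2 and Igfbp2 were lower and none was higher, beside 1.43% of all genes lower. In main-cluster members the same 3 were lower, and Igf1r and Igfbp5 were higher. Igf2 stood at 18.7, 63.3 and 18.8 CPM in members against 560.1, 347 and 228.5 CPM. Ptgds, which makes prostaglandin D2, stood at 969, 927 and 735 CPM against 5459, 3859 and 5142 CPM. The cystine transporter gene Slc7a11 stood at 46.8, 99.5 and 18.8 CPM against 455, 538 and 419 CPM. The aldehyde oxidase gene Aox3 stood at 56.2, 49.8 and 18.8 CPM against 437, 347 and 343 CPM. In the HGF scaffold library members held 53082 UMIs and Slc6a20-side nuclei 26255. The values of 18.8 CPM for Igf2, Slc7a11 and Aox3 there are thus near the floor. Of 11 arachnoid barrier markers measured in members, Dpp4, Ptgds and the connexin genes Gjb2 and Gjb6 were lower, and Slc4a4 was higher. Of 10 measured in main-cluster members, only Ptgds was counted lower, and Slc4a4 and Klf5 were higher. Kcnk2, a potassium channel gene, was lower in members, at 70.2, 49.8 and 94.2 CPM against 425, 274 and 267 CPM, whereas Kcnk5 was higher, at 300, 267 and 527.5 CPM against 24.6, 5.17 and 38.1 CPM.

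**Figure D3:**
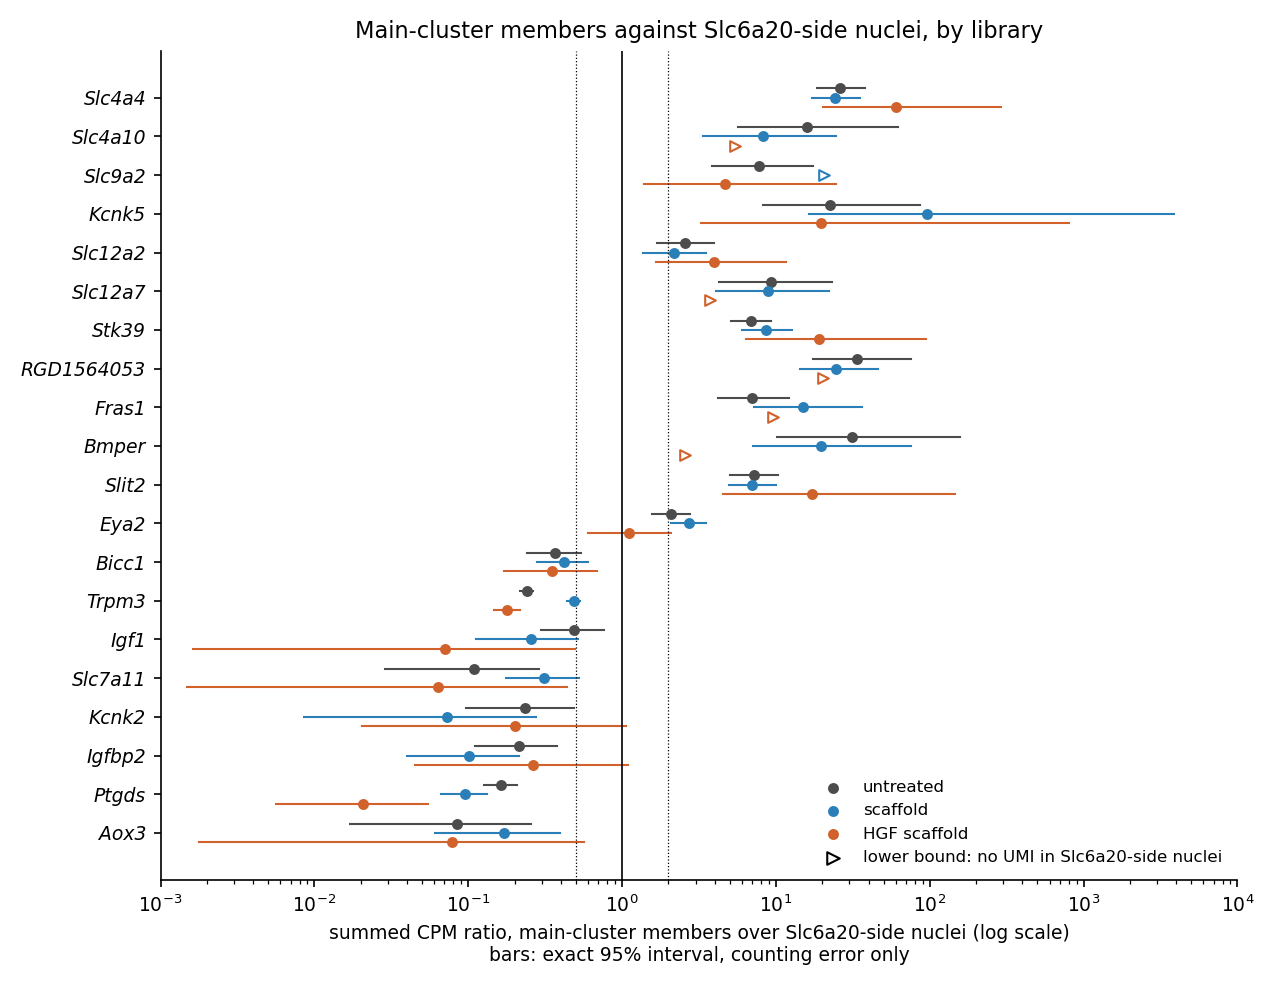
Ratio of summed CPM in main-cluster members over Slc6a20-side nuclei (x axis, log scale) for 20 genes in each library, with exact 95% intervals; open triangles are lower bounds where no UMI was seen in Slc6a20-side nuclei. Slc4a4, Kcnk5 and Stk39 lie above 2-fold and Ptgds, Slc7a11 and Aox3 below 0.5 in all 3 libraries, and the HGF scaffold intervals are wide because that library had 19 Slc6a20-side nuclei.

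Between libraries, members of the scaffold library held more myeloid and fewer oligodendrocyte transcripts than those of the untreated library. Of 4629 genes whose UMIs in the pair of libraries came to 20 or more, 438 (9.46%) were 2-fold or more higher and 275 (5.94%) lower in the scaffold library. Among the 10 genes with the highest interval bound were the inflammatory genes Cxcl2 and Il1b and the myeloid genes Ccl3, Pla2g7, Aoah, Ncf4 and Adgre1. Among the 10 lowest were Enpp6 and Prr5l, which stood on the lists of oligodendrocyte precursor and oligodendrocyte markers. The oligodendrocyte list summed to 5108, 2565 and 1187 CPM in members and 2156, 1593 and 1176 CPM in main-cluster members. Of 10 myeloid markers measured in members, 7 were higher and none lower. The myeloid list summed to 1386, 4298 and 2995 CPM in members, 1343, 3008 and 2539 CPM in main-cluster members and 1216, 5082 and 6504 CPM in all other nuclei. The scaffold value was thus above the untreated one in all 3 sets, and whether these transcripts were made in the members was not tested.

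In main-cluster members the same comparison gave 168 (7.22%) higher and 111 (4.77%) lower genes of 2326. Myeloid genes were again among the leading ones: Aoah stood at 49.3 CPM in the untreated and 534 CPM in the scaffold library, Apoe at 369.5 and 1365 CPM, and Spp1 at 148 and 663 CPM. All 3 were also higher in all other nuclei, by 9.90-fold, 2.22-fold and 7.16-fold. The cAMP phosphodiesterase gene Pde4d was 4.39-fold (3.16 to 6.23) higher in the main cluster, 3.35-fold higher in all other nuclei and 6.13-fold in Slc6a20-side nuclei. The transferrin receptor gene Tfrc and the glycolysis regulator gene Pfkfb3 each had 1 UMI in untreated main-cluster members and 23 and 19 in the scaffold library, and both were higher in all other nuclei as well, by 7.24-fold and 4.23-fold.

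A few genes had larger ratios between libraries in the main cluster than in all other nuclei. Arsj, an arylsulfatase gene, stood at 197 CPM in the untreated, 1049 in the scaffold and 214 in the HGF scaffold main-cluster members. The scaffold level came from 21 nuclei, with 22 of 106 UMIs in 1 of them. In all other nuclei Arsj stood at 143, 121 and 102 CPM, and in main-cluster nuclei outside the rule at 308, 439 and 202.5 CPM. Nr4a1, an immediate early gene, stood at 49.3, 317 and 347.5 CPM in main-cluster members, a scaffold over untreated ratio of 6.43 (2.28 to 25.0), against 2.01 (1.71 to 2.37) in all other nuclei. Of 6 immediate early and heat shock genes measured in the main cluster, Junb, Nr4a1 and Hsph1 were higher and none lower, but 40 of the 46 Hsph1 UMIs in the scaffold library came from 1 nucleus. These differences between sets were not tested, with 1 library per group.

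Col8a1, Hmcn1 and Pdgfc were lower in the scaffold library than in either of the others. Of 14 matrix genes measured in the main cluster, Col6a2, Col8a1 and Col14a1 were lower and Thbs1 higher in scaffold over untreated, and of 10 growth factor ligands and receptors Pdgfc was lower and none higher. Col8a1, which the rule limits, was 0.402-fold (0.285 to 0.56) in scaffold over untreated main-cluster members and 2.70-fold (1.82 to 3.999) in HGF scaffold over scaffold. In all other nuclei these ratios were 0.233 and 2.001. Hmcn1 followed the same course, at 1380, 643 and 1524 CPM in the main cluster and 733, 190 and 342 CPM in all other nuclei. Pdgfc, a platelet-derived growth factor gene, stood at 616, 168 and 508 CPM in the main cluster and at 86.9, 46.5 and 73.7 CPM in all other nuclei. These comparisons share the scaffold library, so a low value there lowers the one ratio and raises the other. The integrin gene Itga8 stood at 480.4, 98.9 and 107 CPM, low in both implanted libraries, and Ptgds at 887, 366 and 107 CPM. In members of other clusters Ptgds went the other way, at 1020, 1400 and 2234 CPM. The HGF scaffold value there rests on 9 nuclei with 15670 UMIs.

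**Figure D4:**
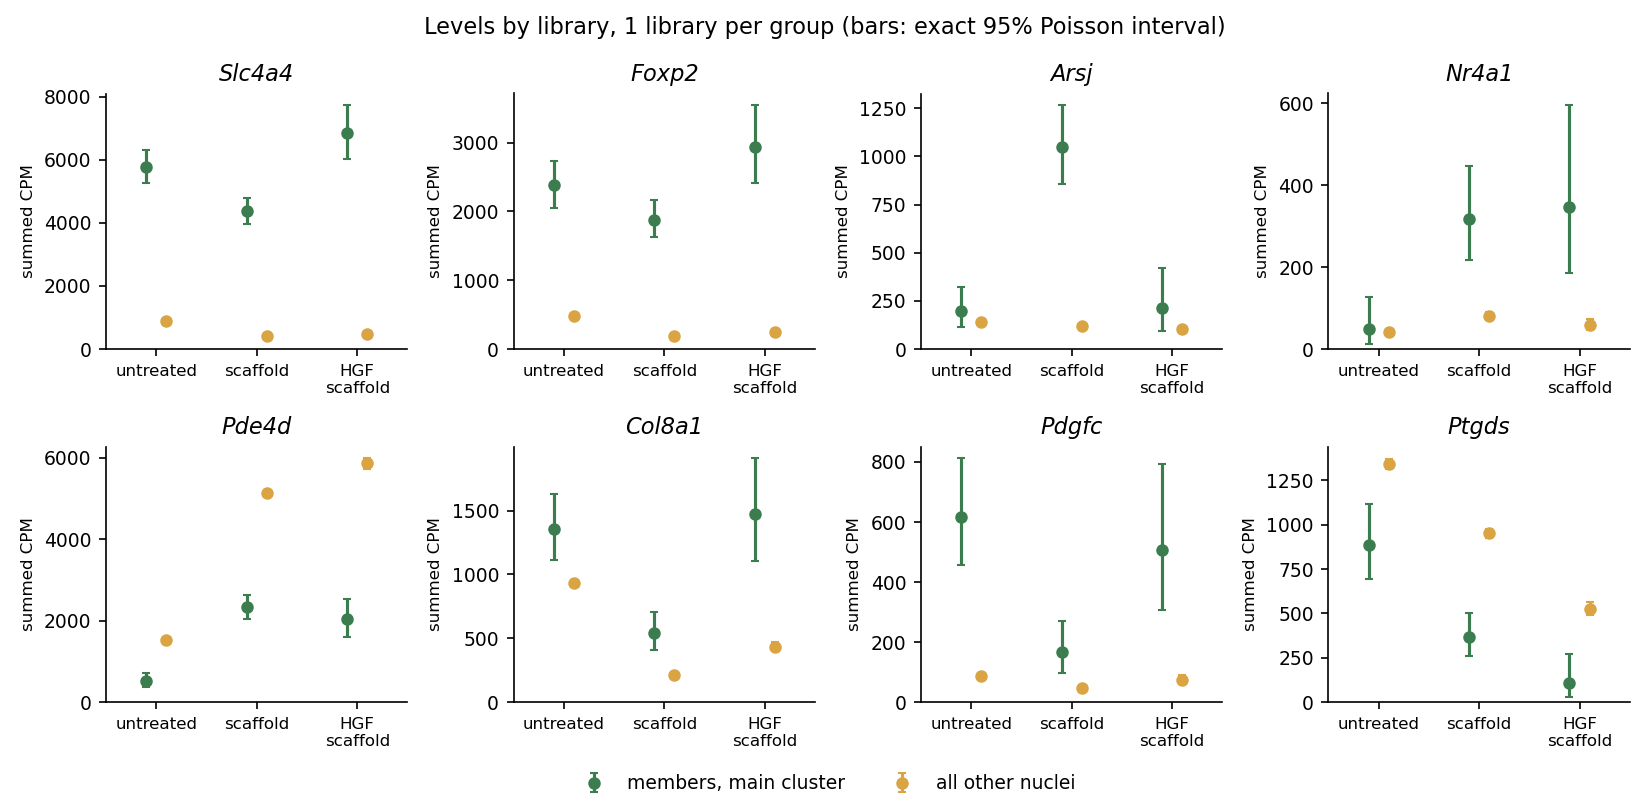
Summed CPM (y axis, from 0) of 8 genes by library (x axis) in main-cluster members and in all other nuclei, with exact 95% Poisson intervals. Arsj is high in the scaffold main-cluster members at 1049 CPM, Col8a1 and Pdgfc are low in that library, and Pde4d is higher in both implanted libraries in both sets.

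HGF scaffold over scaffold gave 193 (5.62%) higher and 491 (14.3%) lower genes of 3433 in members, and 101 (5.66%) higher and 230 (12.9%) lower of 1785 in main-cluster members. HGF scaffold over untreated gave 307 (9.50%) and 505 (15.6%) of 3233 in members, and 84 (5.65%) and 181 (12.2%) of 1486 in main-cluster members. With a minimum of 5 UMIs in place of 20, the counts in members were 1372 higher and 903 lower over scaffold and 1709 higher and 848 lower over untreated. A side with no UMI was put at 3 counts. Members held 53082 UMIs in the HGF scaffold library, against 221057 in the scaffold and 213595 in the untreated library. Genes without an HGF scaffold UMI could thus count as higher at the minimum of 5, so this turn of the balance gives no direction. At the minimum of 20, most of the 491 and of the 230 genes lower than in the scaffold library had intervals that included 1. Most of the 193 and of the 101 higher genes had intervals above 1. Among genes whose interval excluded 1, lower ones still outnumbered higher ones. The counts of lower genes over the scaffold library thus overstate what the intervals bear out. The HGF scaffold library had 36 members and 27 in the main cluster. The rule used Slc26a7, Foxp2, Slc47a1 and Adamtsl3, so their ratios between libraries are conditioned on it and are a description. Among all members, Slc26a7, Foxp2 and Slc4a4 were 2.58-fold (1.73 to 3.81), 2.05-fold (1.64 to 2.55) and 2.20-fold (1.89 to 2.55) higher with the HGF scaffold than with the scaffold. Within the main cluster the ratios were 1.88 (1.23 to 2.84), 1.56 (1.23 to 1.99) and 1.56 (1.34 to 1.83), none of them 2-fold. The share of members in the main cluster moved in the same direction, from 50% to 75%. For Slc47a1 and Adamtsl3 the intervals in the main cluster included 1, with ratios of 1.09 (0.681 to 1.70) and 0.904 (0.705 to 1.15).

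Of the genes leading the HGF scaffold over scaffold comparison in the main cluster, LOC257642 was 9.72-fold (3.48 to 33.5) higher, from 5 and 18 UMIs, and Slfn3 was 3.83-fold (2.20 to 6.75) higher, with 24 of its 34 UMIs in 1 nucleus. Both were also higher in all other nuclei, by 3.78-fold and 2.42-fold. Fkbp5, a chaperone gene that glucocorticoids induce, stood at 1059, 594 and 1390 CPM in the main cluster and at 244, 148.5 and 210 CPM in all other nuclei. Adam17, which encodes a shedding protease, stood at 86.2, 69.3 and 401 CPM in the main cluster, from 7, 7 and 15 UMIs. Prkg1, a cGMP-dependent kinase gene, was 0.156-fold (0.0559 to 0.351) in the main cluster, although 53 of its 104 UMIs in the scaffold library came from 1 nucleus. Efemp1, a fibulin gene high in the main cluster, stood at 714, 633 and 241 CPM there.

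The ligand released by the implant and its receptor were scarce in these nuclei. Hgf had 5, 16 and 2 UMIs in members of the untreated, scaffold and HGF scaffold libraries, or 23.4, 72.4 and 37.7 CPM, against 17.8, 66.6 and 115.9 CPM in all other nuclei. The receptor gene Met had 2, 19 and 8 UMIs in members, or 9.36, 86.0 and 151 CPM, against 22.8, 116.9 and 92.3 CPM in all other nuclei. In the main cluster Met had 2, 12 and 6 UMIs. Members and all other nuclei both had higher Met levels in the implanted libraries than in the untreated one.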

How the data were processed

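Nuclei were isolated from spinal cord, and 3 libraries were made with 10x Genomics 3′ chemistry and read in pairs, per the labels' protocols. The deposited values are raw UMI counts per gene and barcode. Per the submitters' processing notes, the tool behind the matrices was Cell Ranger 6.0.1. The genome build and annotation are not given in the sources used here. Every deposited barcode was used, from 500 to 63093 UMIs each. The members and gene lists were chosen with earlier results of these data known.

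Counts were summed over each set of nuclei and divided by its total, scaled to 1e6 (CPM, with 17328 genes in the files). Ratios carry exact conditional 95% intervals, CPM exact Poisson ones and shares exact Clopper-Pearson ones. Where 1 side had no UMI the ratio is a bound at 3 counts per set. A gene was counted past 2-fold where the pair of libraries held 20 UMIs or more, or past 2-fold the same way in each of 3 libraries with at least 30 UMIs. Named genes were the rule genes and markers, the 15 highest over all other nuclei, the 10 most extreme each way in each other comparison by their interval bound (against Slc6a20-side nuclei by their least extreme library), and measured genes of 21 lists fixed with the design. Genes that name clusters are cluster leaders, and Stk39 and Nr3c2 were chosen after their values were seen. Clustering used scanpy 1.11.5 with leidenalg 0.10.2 on 2000 variable genes, 30 components, 15 neighbours and resolution 1. Oligodendrocyte nuclei had at least 5 markers of that list. The ratio code was tested on simulated data. Upstream sequences and gene neighbours are from RefSeq GRCr8. Some genes that the naming rule covers are not reported here.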

Additional observations from a re-analysis of the deposited data

How the results depend on the processing

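No paired analysis was possible because each group is 1 library and the replicate numbers only name the samples. The values rest on 27 to 62 main-cluster members per library, and most genes fell under the UMI minimum. In the order scaffold over untreated (higher, lower), HGF scaffold over scaffold (higher, lower), HGF scaffold over untreated (higher, lower), members over all other nuclei (higher) and over Slc6a20-side nuclei (higher, lower), the counts were 438, 275, 193, 491, 307, 505, 55, 51 and 80. With at least 3 of the 5 genes they were 212, 198, 92, 211, 127, 264, 80, 80 and 88. With only main-cluster members they were 168, 111, 101, 230, 84, 181, 120, 118 and 108. Without members holding 3 markers of another lineage they were 89, 118, 50, 115, 45, 134, 100, 119 and 81. With a minimum of 5 UMIs they were 1207, 1022, 1372, 903, 1709, 848, 156, 51 and 267, and with 50 UMIs 140, 114, 37, 134, 62, 206, 39, 47 and 49. At the minimum of 5, genes without a UMI in HGF scaffold members could count as higher there, because such a side was put at 3 counts. With each nucleus given equal weight the counts were 472, 304, 267, 579, 289, 564, 92, 74 and 92. Leaving out the top 50 genes or centring on the median gene kept all 9 counts within 1.5 times. The limit on genes and mitochondrial UMIs removed none of the 5326 nuclei, and the files held 0 mitochondrial genes by name, so it says nothing about stability. The member shares of the untreated, scaffold and HGF scaffold libraries were 2.44%, 2.45% and 2.65% with at least 3 of the 5 genes, 2.75%, 2.68% and 2.98% in the main cluster, 2.89%, 1.80% and 1.99% without members holding other markers, and 6.75%, 4.29% and 4.64% after thinning. Of the ratios of named genes, 27 moved, 3 changed direction and 10 did not move without members holding 3 markers of another lineage, and 26 moved, 1 changed direction and 34 did not move in the main cluster. With at least 3 of the 5 genes 25 moved and 50 did not, and with equal weight 16 moved and 79 did not. On the log2 scale, Ppp2r2b in scaffold over untreated went from -1.87 to 1.07 without members holding 3 markers of another lineage and to 0.0532 in the main cluster. Without members holding such markers, St6galnac3 in HGF scaffold over untreated was 0.224, and Abat against Slc6a20-side nuclei went from -2.18 to 0.0801 in its highest library. The cause was not tested.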
